A study of Mus musculus with 59 samples.

Results

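Trichostatin A (TSA), an inhibitor of the zinc-dependent histone deacetylases, was compared with no treatment in late 2-cell mouse clones, the products of somatic cell nuclear transfer (SCNT). The comparison covered 12756 of the 24421 genes in the expression table, namely every gene that reached 1 FPKM (fragments scaled to transcript length and library size) in at least 1 of the 2 late 2-cell columns. Both groups were labelled as BDF1 SCNT embryos, collected 33 to 34 h after activation, with 5 poly(A) RNA samples each, 10 of the 59 samples of the series. Untreated SCNT embryos at the 1-cell stage (13 to 14 h) and the early 2-cell stage (20 to 21 h), also BDF1 with 5 RNA samples each, are used below to show which transcripts were present earlier. The protocols name oocytes from superovulated C57BL/6n females aged 5 to 7 weeks. They give neither the dose nor the duration of TSA, and the RNA labels do not name the donor cell type.

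The table held 1 value per gene and group, and how the 5 samples of a group were combined is not given in the sources used here. No spread between samples, no error and no test could therefore be had for any difference, and every difference below describes these 2 columns only. A gene is called higher or lower where the columns lie at least 1 apart on the log2(FPKM + 1) scale, which is 2-fold for a well expressed gene and more than 2-fold in plain FPKM for a low one. Sequencing depth is not given in the table. The last genes inside the limit of 1 FPKM were Mturn, at 0.644 FPKM with TSA and 1.00 untreated, and Gas2l1, at 0.263 and 1.00. Cep152, at 0.479 and 0.999, lay just outside it.

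Histone deacetylases remove acetyl groups from lysines of histones and other proteins, which tightens chromatin, and acetyltransferases add them back. TSA blocks the catalytic zinc of class I and class II deacetylases and leaves the NAD-dependent sirtuins unaffected. In mice the late 2-cell stage is the time of major zygotic genome activation, when stored oocyte mRNA is cleared and a short-lived set of 2-cell genes, many of them multicopy families, is transcribed. Clones often activate this set incompletely.

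Markers of the oocyte and of the 2-cell stage were present in both columns. Among oocyte markers, Zp3, an egg coat protein, was at 92.2 FPKM with TSA and 101 untreated, and Gdf9, an oocyte growth factor, was at 49.8 and 63.1. Of the 2-cell markers, Zfp352 was at 149 and 129 FPKM, Tdpoz1 at 62.9 and 38.7, and Zscan4d at 5.81 and 7.02. Dux, the transcription factor that starts the 2-cell program, was listed at 0 with TSA and at 0.0202 FPKM untreated. Actb, encoding beta-actin, was at 194 and 225 FPKM, whereas Gapdh, the glycolytic enzyme often taken as a reference, was listed at only 0.383 and 0.908. Defining blood markers Ptprc and Tyrobp were listed at 0 in both columns. Among cumulus and granulosa markers, Inha was at 0 in both and Foxl2 at 0.249 and 0.194. Other members of both lists were present. Of 28 blood markers 12 reached 1 FPKM in either column, with a summed level of 168 FPKM with TSA and 139 untreated. So did 23 of 43 cumulus and granulosa markers. Those reaching it included Lyz2 and Cd74 of blood, and Amhr2, Cyp19a1 and Fshr of cumulus and granulosa cells. Their values are given below.

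Most transcripts lay within 2-fold of each other with and without TSA, and more genes were lower than higher. Of the 12756 genes, 320 were higher (2.51%) and 520 were lower (4.08%), and 68.0% lay within 0.5 of each other. The median difference was -0.08, and 43.3% of genes were above 0. This surplus of lower genes depended on the scaling: after the columns were set to a median ratio of 1 there were 399 higher and 397 lower genes. Only 36 of the higher genes and 24 of the lower genes differed by 2 or more. The genes that were higher had a median of 6.58 FPKM with TSA and 1.65 untreated, while the lower genes had 1.698 and 5.38. Of the higher genes, 133 were under 1 FPKM untreated and were kept through the TSA column alone. Likewise 202 of the lower genes were under 1 FPKM with TSA and were kept through the untreated column alone. Limited to the 8496 genes that reached 5 FPKM in either column, 179 were higher (2.11%) and 280 were lower (3.30%).

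The deacetylases themselves were expressed at levels that differed little between the columns. Of the 11 genes of zinc-dependent deacetylases, 6 reached 1 FPKM and none of these was called in either direction, with a median difference of -0.14. Hdac1, the class I enzyme that dominated at this stage, was at 53.2 FPKM with TSA and 35.6 untreated, after 1.78 at the early 2-cell stage and 1.14 at the 1-cell stage. Hdac2, its close paralog, ran the other way, at 17.3 and 23.5 FPKM, after 28.1 and 26.3 earlier. Thus Hdac1 was the 1 member of the 6 with a positive difference. Hdac6, the cytoplasmic tubulin deacetylase, was at 5.34 and 6.07, Hdac4 at 1.62 and 2.54, Hdac9 at 0.896 and 1.08, and Hdac10 at 1.25 and 1.29. Hdac3, Hdac5, Hdac8 and Hdac11 stayed under 1 FPKM in both columns, with at most 0.858 for Hdac11, and Hdac7 was listed at 0.

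Partners and opponents of these enzymes likewise held no called gene. The 7 sirtuins had a median of 0.30, led by Sirt7, a nucleolar deacylase, at 104 FPKM with TSA and 64.0 untreated. The mitochondrial members Sirt3 (9.91 and 15.6 FPKM) and Sirt4 (4.29 and 6.77) were the 2 below 0. Among the 17 acetyltransferases (median -0.10), Kat2b, a coactivator also known as PCAF, stood highest at 15.6 and 8.14 FPKM, and the circadian acetyltransferase Clock lowest at 81.1 and 117. None of the 27 bromodomain and YEATS readers of acetylated lysine was called. Brd3 was at 22.5 and 12.8 FPKM. In the 35 genes of deacetylase corepressor complexes (median 0.04), Mier3 was at 486 and 280, and Chd4, the ATPase of the NuRD complex, at 5.35 and 10.3.

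From a list of 24 genes known to respond to deacetylase inhibitors in cultured cells, 22 reached 1 FPKM. Of these 2 were higher (9.09%, against 2.51% over all genes) and none was lower, with 9 above 0 (40.9%, against 43.3%). Both higher genes control the cell cycle. Cdkn1c, an imprinted inhibitor of cyclin-dependent kinases, was at 6.66 FPKM with TSA and 2.11 untreated, and Ccnd1, cyclin D1, at 10.1 and 4.07. H1f0, the linker histone long used as a marker of deacetylase inhibition, was at 83.8 and 53.2 FPKM. Cdkn1a, the p21 inhibitor, lay on the other side at 125 and 167. So did the metallothioneins, with Mt1 at 1254 and 1922 FPKM and Mt2 at 1123 and 1809.

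Replication-dependent histone genes formed the list with the largest share of lower members among the lists of 10 genes or more that were drawn up here, apart from lists added after the values were seen. These clustered genes supply core histones during S phase, and their mRNAs end in a stem-loop instead of a poly(A) tail, so a poly(A) library captures them poorly. Of 36 that reached 1 FPKM, 13 were lower, 1 was higher and 33 were below 0, against 4.08% lower over all genes. Their median difference was -0.78, and the FPKM of all 68 listed genes summed to 199 with TSA and 423 untreated, after 187 at the early 2-cell and 188 at the 1-cell stage. Hist1h4d, an H4 gene, was at 11.5 FPKM with TSA and 66.9 untreated. Hist2h2ac, an H2A gene, was at 11.2 and 33.2. Hist1h2ag was at 23.8 and 53.4, and Hist1h2ao at 24.8 and 51.4. All 4 stood below 5 FPKM at both earlier stages.

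All 5 histone classes had lower summed levels with TSA. The summed level of H2A genes was 101 FPKM with TSA and 195 untreated, that of H4 genes 44.0 and 119, and that of H2B genes 14.6 and 33.4. H3 genes summed to 11.5 and 24.8, and linker H1 genes to 28.2 and 51.3. Hist1h2ap was the 1 member called higher, at 17.2 FPKM with TSA and 5.42 untreated. It is nearly identical in coding sequence to other H2A genes, among which reads could be divided. Hist1h2br (1.01 and 0.789) and Hist1h2bh (2.17 and 2.04) were above 0 without being called. Members stored from the oocyte were lower too: Hist1h2aa, a testis and oocyte H2A, was at 1.44 and 4.72 FPKM after 31.1 at the 1-cell stage, and its neighbour Hist1h2ba at 1.28 and 4.41 after 27.2. The plot of histone genes by stage sets the TSA column against the untreated one, beside the polyadenylated histone genes.

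**Figure D1:**
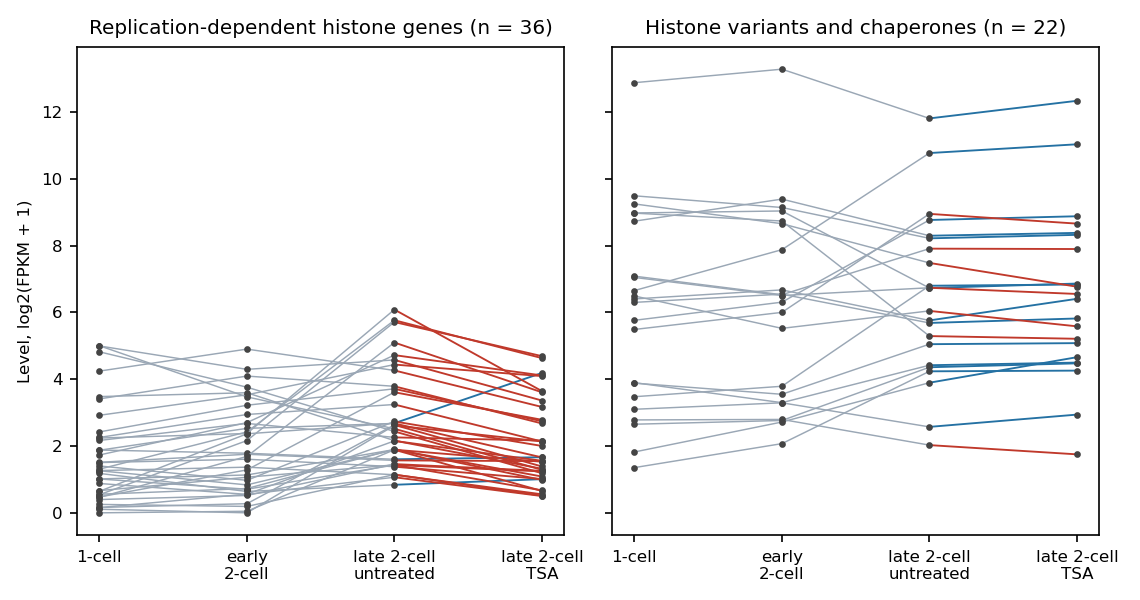
Level in log2(FPKM + 1) of each replication-dependent histone gene (left, 36 genes) and each histone variant or chaperone gene (right, 22 genes) in the 4 SCNT columns, 1 value per gene and column. The last segment is red where the TSA level was below the untreated late 2-cell level (33 of 36 genes on the left) and blue where it was above (15 of 22 genes on the right).

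Histone variants, whose mRNAs carry poly(A) tails, did not share this direction. None of 22 variant and chaperone genes was called and 15 were above 0, with a median of 0.08. H3f3b, one of the genes for the replacement histone H3.3, was at 5164 FPKM with TSA and 3583 untreated. H2afz, the H2A.Z gene, was at 2094 and 1746, and H2afx, whose product marks DNA breaks when phosphorylated, at 24.3 and 13.9. At the low end were the maternal chaperones Npm2 (108 and 178 FPKM) and Nap1l4 (46.9 and 65.0).

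The promoters of the histone genes kept were searched for short motifs, without comparing members by their difference. RefSeq promoters (GRCm38.p6, from 250 bases before to 50 bases after the listed start, first entry of each gene) were found for 32 of the 36 genes. CCAAT, searched on both strands, occurred in 29 of the 32 (90.6%), against 40.1% of the promoters of the 10090 genes with an entry, and TATAAA in 18 of 32 (56.2%), against 7.49%. Both are textbook elements of histone promoters. The 2 genes with the lowest differences are shown 5′ to 3′, with capitals marking CCAAT, any match of TATAAA and any of the letters GGGCGG on either strand, and no match overlaps another here. Hist1h4d (RefSeq H4c4) lies at chr13:23581318-23581617 on the plus strand and Hist2h2ac (RefSeq H2ac20) at chr3:96220831-96221130 on the minus strand.
Hist1h4d: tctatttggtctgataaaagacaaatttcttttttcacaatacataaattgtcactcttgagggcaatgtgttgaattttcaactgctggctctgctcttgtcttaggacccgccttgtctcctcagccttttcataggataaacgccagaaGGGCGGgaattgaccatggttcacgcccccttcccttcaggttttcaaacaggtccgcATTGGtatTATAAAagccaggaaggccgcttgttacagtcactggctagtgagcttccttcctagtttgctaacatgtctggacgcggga
Hist2h2ac: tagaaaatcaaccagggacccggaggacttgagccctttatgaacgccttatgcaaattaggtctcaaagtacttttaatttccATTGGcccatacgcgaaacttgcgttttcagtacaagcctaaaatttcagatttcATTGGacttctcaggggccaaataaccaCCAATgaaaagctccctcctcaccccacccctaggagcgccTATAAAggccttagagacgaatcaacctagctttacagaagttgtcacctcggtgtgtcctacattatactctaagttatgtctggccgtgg
TATAAA began 32 bases before the listed start in Hist1h4d and 42 bases before it in Hist2h2ac. CCAAT occurred 1 time in the former and 3 times in the latter.

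Families of 2-cell genes stood mostly above the untreated level. Over 7 lists of such genes, 64 reached 1 FPKM, 53 were above 0 (82.8%, against 43.3% over all genes), 9 were higher (14.1%, against 2.51%) and none was lower (4.08% over all genes). Their median was 0.46, against -0.08. The Obox homeobox genes, a further list of 2-cell genes, were not among the 7 and ran the other way. Of 6 Obox genes 1 was above 0, with a median of -0.31 and none called. Family members share much of their sequence, so reads could be divided among copies, and the family sums are less exposed to this than single members.

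The Usp17l family, encoding deubiquitinating enzymes, had the highest median of the 7 lists, at 0.94. Usp17lb was at 276 FPKM with TSA and 110 untreated, and Usp17lc at 42.7 and 17.8. Usp17la (1.44 and 0.551) and Usp17ld (5.88 and 4.52) were also above the untreated level. In sum the family was at 326 FPKM with TSA and 132 untreated, 2.46 times as much, after 4.77 at the early 2-cell stage.

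The promoters of the 2 called members are shown because both genes were higher and the sequences are close copies. Usp17lb lies at chr7:104842534-104842833 on the minus strand and Usp17lc at chr7:103416446-103416745 on the plus strand (GRCm38.p6), with capitals as above.
Usp17lb: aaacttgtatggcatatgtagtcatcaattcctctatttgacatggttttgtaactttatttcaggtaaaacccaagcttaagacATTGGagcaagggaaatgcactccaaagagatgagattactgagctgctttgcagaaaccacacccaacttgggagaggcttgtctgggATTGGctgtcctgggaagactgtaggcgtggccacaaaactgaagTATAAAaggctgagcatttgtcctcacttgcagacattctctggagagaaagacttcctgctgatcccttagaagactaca
Usp17lc: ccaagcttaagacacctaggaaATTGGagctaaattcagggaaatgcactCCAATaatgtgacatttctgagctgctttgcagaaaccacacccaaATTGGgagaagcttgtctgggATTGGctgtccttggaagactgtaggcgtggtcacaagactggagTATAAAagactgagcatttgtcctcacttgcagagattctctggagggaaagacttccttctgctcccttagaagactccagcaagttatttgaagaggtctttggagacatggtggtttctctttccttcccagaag
Shifted against each other by 57 bases, the 2 promoters were the same at 198 of 243 positions (81.5%). TATAAA began 31 bases before the listed start of Usp17lb and 88 bases before that of Usp17lc. All 4 promoters of the family held CCAAT, 3 of 4 held TATAAA and none held GGGCGG, which occurred in 61.9% of the promoters of kept genes.

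Pramef and Pramel genes, leucine-rich repeat proteins of the PRAME family, were above 0 in 10 of 11 cases, with a median of 0.65. Of them 2 were higher (18.2%, against 2.51% over all genes) and none was lower (4.08% over all genes). Pramel6, known from naive pluripotent cells, was at 194 FPKM with TSA and 101 untreated, and Pramel7 at 108 and 60.8. Pramef6 (8.50 and 3.65) and Pramel3 (2.27 and 0.379) were the 2 called. The exception, Pramef12 at 7.56 and 10.5, is an oocyte transcript, which had been at a higher level at the early 2-cell stage. Copies related to the translation factor gene Eif1a were above 0 in 8 of 9 cases, and 1 was higher (11.1%, against 2.51% over all genes). Gm5662 was at 474 and 311 FPKM, Gm2016 at 309 and 201, and Gm8994, the 1 called, at 22.8 and 10.8.

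All 5 Tdpoz genes, which encode TRAF-domain and POZ-domain proteins, were above the untreated level and none reached 2-fold. Tdpoz1 was highest in level, at 62.9 and 38.7 FPKM. In the Tcstv family, 4 of 5 were above 0. Gm21319 was at 10.7 and 4.42 FPKM and Tcstv3 at 44.8 and 29.6, whereas Tcstv1 was at 27.2 and 36.8. Zscan4, the telomere-associated zinc finger family that defines the 2-cell state in stem cells, ran the opposite way, with 1 of 4 above 0 and a median of -0.39. Zscan4c was at 3.29 and 5.29 FPKM and Zscan4f at 1.44 and 2.86. Only Zscan4a, at 3.78 and 2.48, was above the untreated level, and no Zscan4 gene was called.

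**Figure D2:**
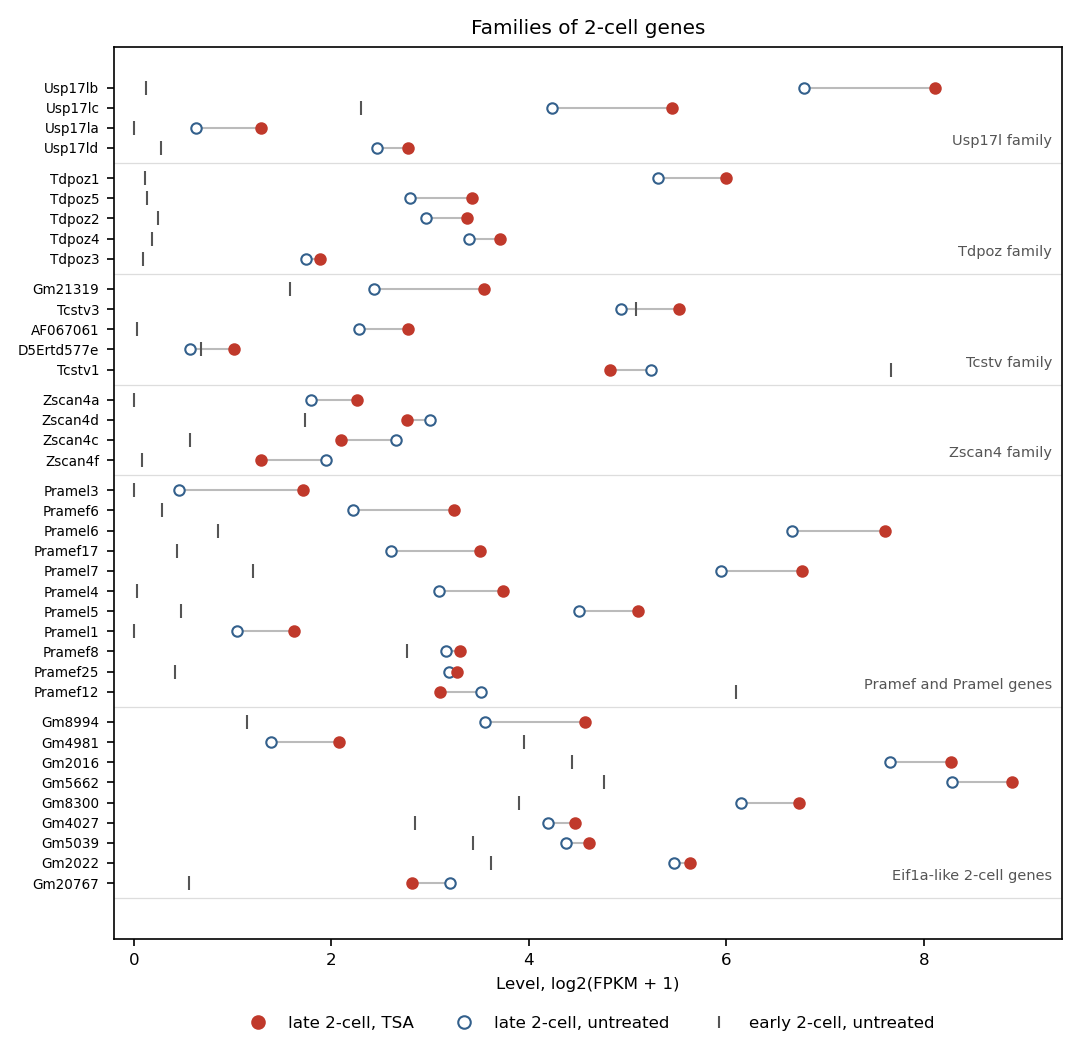
Level in log2(FPKM + 1) of the members of 6 families of 2-cell genes with TSA (filled red) and without (open blue) at the late 2-cell stage, and untreated at the early 2-cell stage (tick), 1 value each. Red lies right of blue for all Usp17l and Tdpoz genes and left of blue for 3 of 4 Zscan4 genes.

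Among 26 other 2-cell genes, 21 were above 0 (80.8%, against 43.3% over all genes). Of the 26, 3 were higher (11.5%, against 2.51%) and none was lower (4.08% over all genes). Lmx1a, a LIM homeobox factor, was at 10.1 FPKM with TSA and 3.73 untreated, Gm13128 at 6.23 and 1.89, and Gm12794 at 18.3 and 8.51. At the low end were Ddit4l (9.97 and 14.7) and Pdxdc1 (27.8 and 39.8). Regulators of Dux had a median of 0.07 with no called gene. Dppa2, which opens the Dux locus together with Dppa4, was at 139 and 88.8, and Smchd1, a repressor of it, at 55.7 and 87.1.

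Transcription factors of genome activation had a median of 0.36, with 23 of 34 above 0. Of them 2 were higher (5.88%, against 2.51% over all genes) and 1 was lower (2.94%, against 4.08%). Tfap2c, the AP-2 gamma factor, was at 9.10 FPKM with TSA and 1.23 untreated, after 11.1 at the early 2-cell and 12.7 at the 1-cell stage, so the treated embryos were near the earlier level and the untreated embryos below it. Esrrb, an orphan nuclear receptor, was at 1.84 and 0.177. Nfyc, a subunit of the factor NF-Y that binds CCAAT, was at 135 and 74.2. The lower gene was Mycl, at 0.421 and 2.25 FPKM. In the core pluripotency list, 3 of 23 were higher (13.0%, against 2.51% over all genes) and 2 were lower (8.70%, against 4.08%). Fgf4 was at 17.1 and 5.54, Sall4 at 156 and 76.2, and Spp1, encoding osteopontin, at 6.93 and 19.2. Nanog (0.471 and 1.10) and Pou5f1 (1.16 and 2.18) were low in both columns.

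Most stored oocyte transcripts were not called. Over 4 lists of maternal genes, 1 of 98 was higher (1.02%) and 3 were lower (3.06%), against 2.51% and 4.08% over all genes. Of them 29 (29.6%) were above 0, against 43.3%, and the median was -0.13, against -0.08. Egg coat and fertilization genes had 1 of 16 above 0. Izumo1r, the sperm receptor Juno, was at 9.09 and 20.7 FPKM, and Oosp2 at 23.8 and 45.6. Nlrp4f, a member of the subcortical maternal complex, was at 10.5 and 23.9. Rspo2, a WNT agonist of oocytes, was at 33.6 and 68.7, and Bmp15 at 237 and 393. The higher gene was Btg1, an activator of deadenylation, at 175 FPKM with TSA and 73.2 untreated. With median-ratio scaling, 43.9% of the maternal genes were above 0.

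Genes were also divided by their level before the late 2-cell stage, in the 1-cell and early 2-cell columns, which the comparison itself does not use. The 819 genes that were under 0.1 FPKM at both earlier stages held 76 higher (9.28%) and 54 lower (6.59%) members, with a median of 0.10. Over all genes 2.51% were higher and 4.08% lower. Genes of this class were kept only by reaching 1 FPKM in a late 2-cell column, so a called member could pass through its higher column alone. This can raise both shares, and with no filter the share above 0 was lower, as given further below. The 7650 genes that were at 1 FPKM or more at both stages and less than 2-fold apart held 83 higher (1.08%) and 226 lower (2.95%), with a median of -0.12. Stored transcripts that were 2-fold lower by the early 2-cell stage had a median near 0, with 7 higher and 15 lower of 586. Those 2-fold higher by then had 7 higher and 11 lower of 187. Restricted to genes reaching 5 FPKM, of which 2.11% were higher and 3.30% lower, the silent class had 22 higher and 12 lower of 171. Its median was 0.35, and the flat class had 66 higher and 167 lower of 6210. Levels move with these classes, since genes that start at the late 2-cell stage are low, and the part of level in the shares was not tested.

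**Figure D3:**
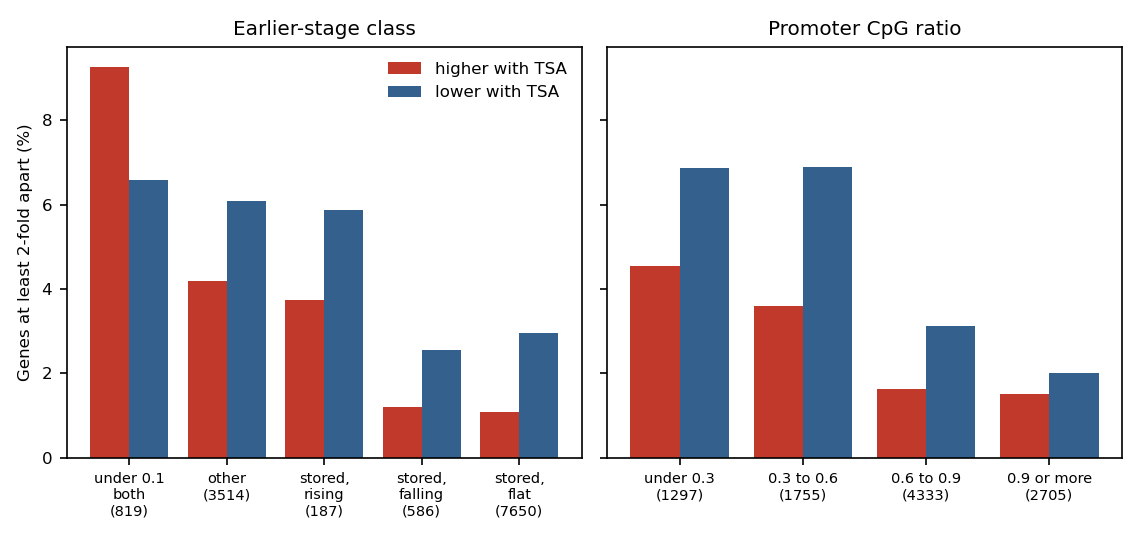
Share of genes at least 2-fold higher (red) or lower (blue) with TSA, in percent, by level at the earlier stages (left) and by the CpG ratio of the promoter (right), with the number of genes in brackets. Genes under 0.1 FPKM at both earlier stages had 9.28% higher and 6.59% lower members, against 2.51% and 4.08% over all genes. By CpG ratio, both shares were smallest for promoters with a ratio of 0.9 or more.

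Genes 2-fold apart in either direction had promoters poorer in CpG than the rest. The CpG ratio is the observed count of CG over that expected from the C and G content, and low values are typical of tissue-specific genes. Its median was 0.57 both for the 234 promoters of higher genes and for the 399 of lower genes, against 0.77 for the 9457 others. Promoters with a ratio under 0.3 had 59 higher (4.55%) and 89 lower (6.86%) of 1297, and those with 0.9 or more had 41 higher (1.52%) and 54 lower (2.00%) of 2705. GGGCGG, the core of the SP1 motif, occurred in 48.7% of higher, 54.1% of lower and 62.5% of other promoters, and TATAAA in 12.8%, 11.5% and 7.19%. CCAAT differed little, at 40.6%, 36.8% and 40.2%. No feature of these separated higher from lower genes by much. The shares also moved with level. They were 1.96% higher and 5.01% lower at 1 to 2 FPKM in the higher column, and 4.24% and 6.06% at 2 to 5 FPKM. At 100 FPKM or more they were 1.49% and 1.41%. The part of level in the promoter differences was not tested.

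Genes of specialized tissues and of the germline, most of them silent at this stage, showed single large differences without a common direction. Over 8 lists, 145 genes reached 1 FPKM, of which 12 were higher (8.28%, against 2.51% over all genes), 6 were lower (4.14%, against 4.08%) and 57 were above 0 (39.3%, against 43.3%). The higher genes came from the testis and meiosis, neuronal, muscle and olfactory receptor lists. Myl3, a myosin light chain, was at 81.3 FPKM with TSA and 32.5 untreated.

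Testis and meiosis genes held 5 higher (10.9%, against 2.51% over all genes) and 2 lower (4.35%, against 4.08%) of 46, with a median of 0.01. Tex101, a germ cell surface protein, was at 68.4 FPKM with TSA and 13.4 untreated and was listed at 0 at both earlier stages. Mei1, needed for meiotic DNA breaks, was at 6.75 and 1.33, Slc25a31, the germline ADP/ATP carrier, at 13.4 and 3.68, and Mov10l1, a helicase of the piRNA pathway, at 5.18 and 1.15. Hormad1, of the meiotic chromosome axis, was at 15.9 and 6.74. Sycp3, of the same axis, lay on the other side at 31.0 and 62.5, without being called. Ctcfl, the germline paralog of CTCF, was chosen after its values were seen, at 3.90 and 0.482.

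Neuronal genes held 4 higher of 22 (18.2%, against 2.51% over all genes) and none lower, yet 14 were below 0 and the median was -0.15. Gad2, a GABA-synthesizing enzyme, was at 3.61 FPKM with TSA and 0.676 untreated, Nefl, a neurofilament, at 3.59 and 0.872, and Calb2, calretinin, at 3.39 and 0.962. These were under 4 FPKM even with TSA and under 1 FPKM untreated, so they passed the filter through the TSA column alone. Abundant members such as Uchl1, a deubiquitinase that oocytes store, were lower in level, at 471 and 681. Lists of 45 homeobox and 28 doublesex or basic helix-loop-helix genes were added after the values were seen. They held 5 (11.1%) and 7 (of 28) higher genes, against 2.51% over all genes, and 1 and 0 lower, with medians of 0.05 and -0.02. Meis2 was at 172 and 54.9 FPKM, Barx2 at 3.11 and listed at 0 untreated, and Dmrt1, a testis determinant, at 4.16 and 0.992.

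Signalling genes were mostly within 2-fold. In the WNT list 3 of 31 were higher (9.68%, against 2.51% over all genes) and 1 was lower (3.23%, against 4.08%). The higher genes were the secreted inhibitor Sfrp1 (17.6 and 4.88 FPKM) and the receptors Fzd9 (3.78 and 0.943) and Fzd7 (11.9 and 4.65). In the TGF-beta and BMP list, with a median of -0.31, Smad7, its feedback inhibitor, was at 44.0 and 14.7. The Notch target Hes1 was at 62.1 and 32.0, and the ligand gene Jag2 at 6.92 and 15.4.

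Housekeeping lists contained few or no called genes, and their shares above 0 lay on either side of the 43.3% over all genes. Of the lists nearer to that share, 52.4% of spliceosome genes and 44.9% of mitochondrial ribosomal protein genes were above 0, with medians of 0.02 and -0.04 against -0.08. Nucleolar and RNA polymerase I genes, which make ribosomes, were above 0 in 72 of 90 cases with a median of 0.32 and no called gene. Polr1e was at 50.4 FPKM with TSA and 28.1 untreated, Bop1 at 21.1 and 11.8, and Mrto4 at 155 and 91.7, while Nop10 was at 61.5 and 96.4. Of the chaperonin subunits, 7 of 9 were above 0. Cytosolic ribosomal proteins themselves were on the other side, with 25 of 86 above 0 and a median of -0.14.

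Nuclear-encoded subunits of oxidative phosphorylation were above 0 in 19 of 81 cases, with a median of -0.35. Of them 1 was lower (1.23%, against 4.08% over all genes) and none was higher. Complex IV was furthest below, with a median of -0.57 over 15 genes and a summed level of 3271 FPKM with TSA and 4800 untreated. Complex I had 4 of 36 above 0. Complex III had 4 of 9 above 0, a median of -0.15 and a summed level of 996 and 981 FPKM, and complex II had all 4 genes above 0. Cox6a2 was at 3.52 and 9.08 FPKM, and Uqcrfs1, the Rieske protein, at 194 and 114. Antioxidant and glutathione genes had 14 of 48 above 0, none called, and a median of -0.30. Txn1, thioredoxin, was at 12.3 and 24.7 FPKM, and Prdx6, a peroxiredoxin, at 37.8 and 72.7.

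Proteasome genes split by the kind of particle. Of 20 genes of the 19S cap 16 were above 0, as were 10 of the 14 of the 20S core. The 3 inducible core subunits were all below 0, with a summed level of 55.0 FPKM with TSA and 105 untreated. Psmb10 was at 25.7 and 66.2, Psmb8, chosen after its values were seen, at 6.54 and 12.1, and the activator Psme2 at 24.6 and 46.9. Of the 3 genes of the PA28 activator, to which Psme2 belongs, 1 was above 0. Psmb10, Psmb8 and Psme2 are known to be induced by interferon, but a part of interferon in their lower levels was not tested. Interferon genes as a list lay near all genes in median, at -0.12 against -0.08. Of 40 interferon genes 13 were above 0 (32.5%, against 43.3% over all genes), and 47.5% were with median-ratio scaling. Of the 40, 1 was higher and 3 were lower, where 2.51% of all genes were higher and 4.08% lower. Ifi27 was at 28.6 and 71.9, and Ifi30, a lysosomal thiol reductase, at 39.2 and 94.5.

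Cell cycle lists held few called genes, where 2.51% of all genes were higher and 4.08% lower. Spindle and kinetochore genes had 1 higher of 76, replication genes 1 higher and 1 lower of 62, DNA repair genes 1 lower of 78, and cohesin and condensin genes 1 higher of 26. Cyclins were above 0 in 9 of 13 cases, and 2 were higher. Ccna1, the germline A-type cyclin, was at 12.04 FPKM with TSA and 0.785 untreated, and was listed at 0 at both earlier stages. Cdc20, which activates the APC/C ubiquitin ligase at anaphase, was at 589 and 267, and Cdk1, which was not called, at 292 and 174. Among replication genes, Mcm2 of the replicative helicase was at 21.9 and 10.1, and Dbf4, an activator of Cdc7 kinase, at 192 and 445.

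Actin cytoskeleton genes had 17 of 64 above 0 (26.6%, against 43.3% over all genes), with 4 lower (6.25%, against 4.08%) and none higher. Tubulin and motor genes had 49.2% above 0, a median of -0.01 and 3 lower of 65. Anxa2 was at 23.6 and 67.0 FPKM, Tmsb15a, a thymosin, at 1.699 and 7.82, and Tpm2, a tropomyosin, at 2.07 and 6.61. Adhesion genes had 23 of 67 above 0, with 3 lower (4.48%) and 1 higher, and the tight junction gene Cldn7 was at 4.77 and 14.8. Krt8, a keratin of the first epithelium, was at 0.696 and 5.50.

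Markers of cumulus and granulosa cells had 5 lower of 23 (21.7%, against 4.08% over all genes) and none higher, with a median of -0.25. Their summed level over all 43 listed genes was 979 FPKM with TSA and 1253 untreated, after 162 at the early 2-cell and 239 at the 1-cell stage. The lower members were Lgals1 (1.28 and 9.06 FPKM), Anxa2, Fshr (listed at 0 and 1.64), S100a10 (18.3 and 44.4) and S100a6 (7.50 and 16.3), of which only Fshr, the follicle-stimulating hormone receptor, is a defining marker. Of the other defining markers, Cyp19a1 was at 1.703 and 0.498 and Amhr2 at 4.96 and 3.01. S100 calcium-binding proteins, a family added after its values were seen, had 4 of 8 lower and a summed level of 79.3 and 151 FPKM. Fatty acid-binding proteins, added likewise, had 4 of 6 lower, and Fabp3 was at 13.8 and 74.4. Blood markers had 1 higher and 3 lower of 12, where 2.51% of all genes were higher and 4.08% lower. Lyz2 was at 14.4 and 3.46 FPKM and Cd74 at 1.01 and 4.93. In bulk RNA, fewer cells of a type and less RNA per cell cannot be told apart, and the part of other cells in these values was not tested.

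**Figure D4:**
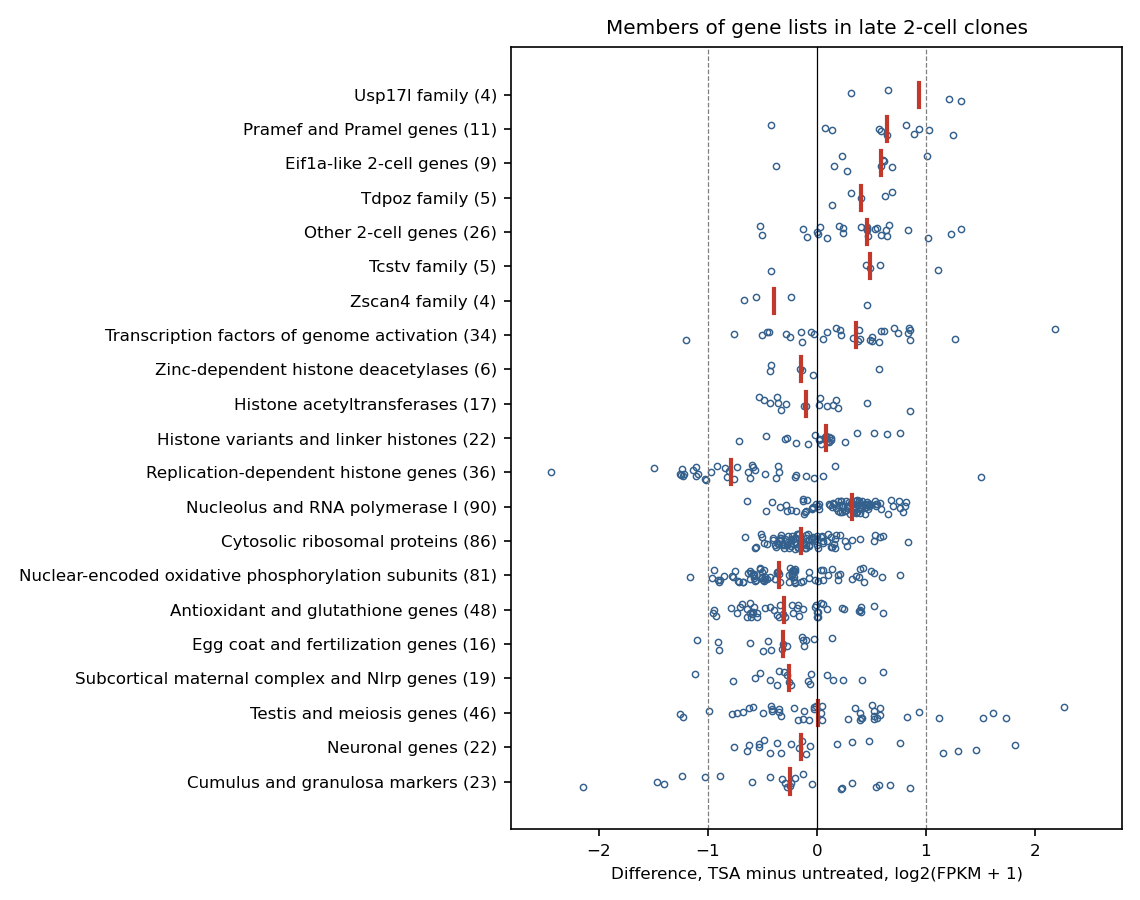
Difference between TSA and untreated late 2-cell clones, in log2(FPKM + 1), for each member (circle) of 21 gene lists, with the list median (red bar), the number of members in brackets and dashed lines at 2-fold. Replication-dependent histone genes lie furthest left, with a median of -0.78, and the Usp17l family furthest right, with a median of 0.94.

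The largest single differences involved microRNA host transcripts. Mir155hg, the precursor of miR-155, was at 169 FPKM with TSA and 0.517 untreated, and at 162 at the early 2-cell stage and 0 at the 1-cell stage. Mir17hg, the precursor of the miR-17-92 cluster, was listed at 0 with TSA and was at 221.7 untreated, after 7.89 and 7.03 earlier. The genes of the hairpins themselves, entered separately in the table, followed the host for the cluster but not for miR-155: Mir17 was at 0 and 1.41, Mir20a at 0 and 1.39 and Mir19b-1 at 0 and 1.42, while Mir155 was at 0.00691 and 0.0309. The listed span of Mir17hg starts after Mir17 and Mir20a and meets Mir19b-1 only at its end. Mir92-1, inside that span, was at 0.00829 and 0.0561. Mir295, of a cluster active in pluripotent cells, was at 6.79 and 0.106 FPKM. Of its neighbours, Mir290a was also above the untreated level, at 0.997 and 0.0542, just under the limit of 1 FPKM. Mir294 (0.0470 and 0.121) and Mir291a (0 and 0.0507) were near 0 in both. Poly(A) libraries read the long precursors and not the mature microRNAs, so none of these values is a level of the mature form.

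The mature sequences encoded by these precursors (RefSeq, GRCm38.p6) are printed with the seed, bases 2 to 8, in capitals, since the seed sets which mRNAs a microRNA can pair with.
miR-17-5p: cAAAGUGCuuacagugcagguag
miR-20a-5p: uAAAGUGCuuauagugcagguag
miR-18a-5p: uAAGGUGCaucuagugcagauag
miR-19a-3p: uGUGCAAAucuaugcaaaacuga
miR-19b-3p: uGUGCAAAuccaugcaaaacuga
miR-92a-3p: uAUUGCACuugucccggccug
miR-155-5p: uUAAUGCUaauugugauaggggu
miR-295-3p: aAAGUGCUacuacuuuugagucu
miR-17-5p and miR-20a-5p share the seed AAAGUGC, and miR-19a-3p and miR-19b-3p share GUGCAAA. The seed of miR-295-3p, AAGUGCU, has the 6 bases AAGUGC in common with that of miR-17-5p, at a shifted position. That of miR-155-5p, UAAUGCU, ends in UGCU, as does the seed of miR-295-3p. Over all genes 2.51% were higher and 4.08% were lower. Annotated microRNA genes as a class had 12 higher (14.5%) and 13 lower (15.7%) of 83. Small nucleolar RNAs had 7 higher (11.9%) and 12 lower (20.3%) of 59. These short genes are poorly measured in poly(A) libraries. Scarna13, a guide RNA of Cajal bodies, was at 26.8 FPKM with TSA and 2.22 untreated, and Snord12 at 0.682 and 16.2.

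Outside the small RNAs, the 20 highest and the 20 lowest differences mixed unrelated functions. They were taken from genes at 5 FPKM or more in the higher column, leaving out those that overlap another gene on the same strand. Strand was read only from promoter entries, which microRNA genes lack. Mir155hg and Mir17hg were therefore kept although they overlap microRNA genes on their own strand. Paip1, a translation factor that binds PABP, was at 593 FPKM with TSA and 39.1 untreated, after 2377 at the 1-cell and 163 at the early 2-cell stage. Myef2, a nucleic acid-binding repressor, was similar, at 104 and 10.2 after 957 and 7.14. Pygo2, a WNT coactivator, was at 11.01 and 0.149, Pdcd4, an inhibitor of translation, at 41.8 and 4.63, and Hnrnpf, a splicing regulator, at 126 and 24.5. Stc1, a secreted calcium regulator, was at 12.2 and 0.827. Crabp1, a retinoic acid carrier, was at 9.45 and 0.831, and St8sia2, a polysialic acid synthase, at 5.33 and 0. Pmaip1, the proapoptotic protein Noxa, was at 8.56 and 1.14. Of the 20 highest genes, 6 had been under 0.1 FPKM at both earlier stages, against 1 of the 20 lowest. Among all 8496 genes that reached 5 FPKM in either column, 171 had been so.

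On the lower side, Per3, a circadian clock gene, was at 1.69 FPKM with TSA and 30.4 untreated. Scarf2, a scavenger receptor, was listed at 0 and was at 17.5 untreated. Znfx1, a helicase of RNA silencing, was at 2.55 and 19.6. Smagp, a small adhesion protein, was at 35.8 and 184, Gnb1, a G protein beta subunit, at 33.9 and 140, and Cstb, an inhibitor of cathepsins, at 12.9 and 50.5. Ptges, prostaglandin E synthase, was at 3.22 and 15.7, Enah, an actin regulator, at 1.503 and 10.5, and Sema4d, a semaphorin, at 0.478 and 5.16.

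**Figure D5:**
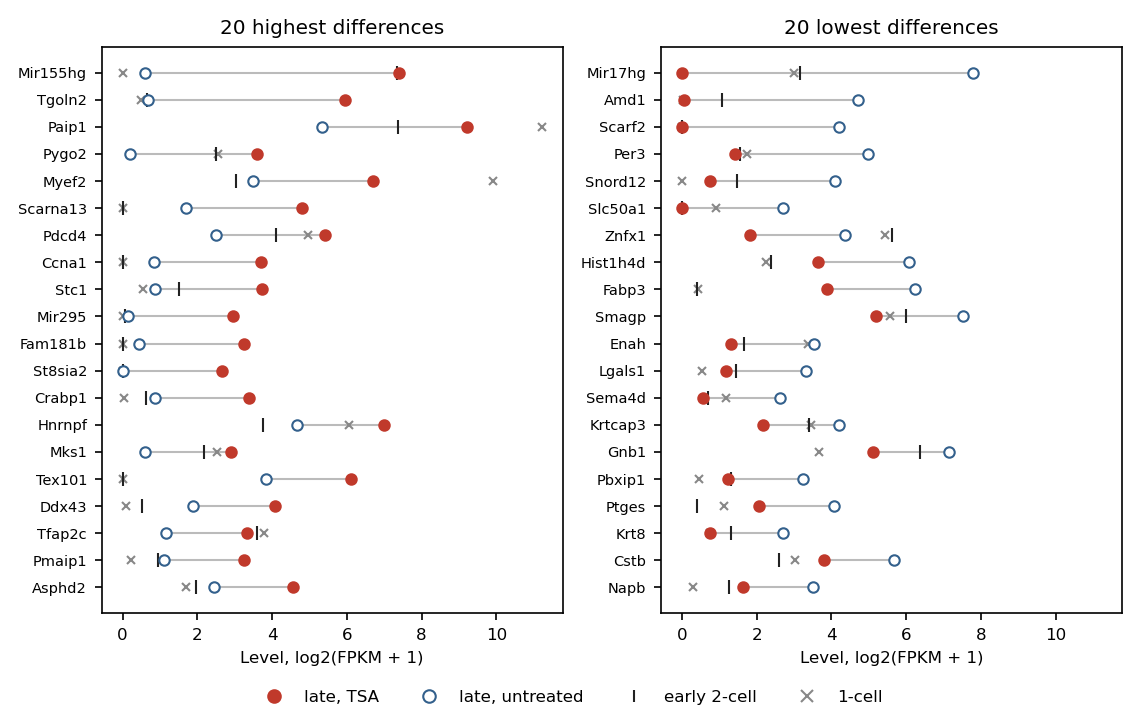
Level in log2(FPKM + 1) of the 20 genes with the highest (left) and the 20 with the lowest (right) differences, with TSA (filled red) and without (open blue) at the late 2-cell stage, and untreated at the early 2-cell (tick) and 1-cell (cross) stages, 1 value each. Mir155hg with TSA lies on its early 2-cell level, and Mir17hg with TSA lies at 0.

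Some large differences were shared between copies or overlapping genes, where reads could be divided either way. Amd1, encoding the polyamine enzyme adenosylmethionine decarboxylase, was at 0.0349 FPKM with TSA and 25.2 untreated, and its near-identical copy Amd2 at 192 and 57.0, so that their sum was 192 and 82.2. Tgoln2, of the trans-Golgi network, was at 60.8 and 0.611 and Tgoln1 at 16.99 and 53.5, with a sum of 77.8 and 54.1. Snurf, at 38.2 and 0.00897, shares a transcript with Snrpn, at 48.7 and 92.4, and their sum was 86.8 and 92.4. Such overlap on the same strand was present in 4.73% of higher, 3.87% of lower and 3.26% of all matched genes.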

How the data were processed

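RNA of SCNT embryos was analysed from 1 expression table, in which the authors deposited log2(FPKM + 1) values, per the file headers. Per the submitters' processing notes, the tools included HISAT2 2.1.0, StringTie 1.3.4, SAMtools 1.7 and Cufflinks with the mm10 build. What each tool did, and how samples were pooled, is not stated there or in the labels. FPKM values were recovered as 2 to the deposited log2 value, minus 1. Columns were assigned to groups by name, the 1-cell column by its 13 h, and 2 further columns that match no labelled RNA group were not used. H3K9ac data were not used here.

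Genes at 1 FPKM in either late 2-cell column were kept, and the difference was TSA minus untreated on log2(FPKM + 1), with a pseudocount of 1. With 1 value per group, no test was run, and depth is unknown. The counting was tested on simulated data with known differences, which bears on the arithmetic and not on the spread between embryos. Named genes were the 20 highest and 20 lowest differences (5 FPKM in the higher column, no overlap on the same strand, predicted genes left out), the 3 highest and 3 lowest of each list, the deacetylases, overlapping pairs and 4 check genes, from which a selection is described. The gene lists (85, with 4 added) and the genes compared were chosen with earlier results of these data known. Gene positions, strands and promoters came from RefSeq (GRCm38.p6): 12714 of the 12756 genes matched, 12131 by current symbol and the others by a unique synonym, and strand was taken from promoter entries alone, so overlaps with genes lacking one, such as microRNA genes, were not judged. Calculations used Python 3.11.15, pandas 2.3.3 and NumPy 2.4.6. Alternatives were other pseudocounts, filters and scalings.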

Additional observations from a re-analysis of the deposited data

How the results depend on the processing

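The counts of genes 2-fold apart depended most on the pseudocount. With 0.1 in place of 1 there were 614 higher and 1074 lower genes, and with 5 there were 89 and 92. Limited to genes at 5 FPKM or more, 179 were higher and 280 lower. Scaling to a median ratio of 1 gave 399 and 397, quantile normalization gave 399 and 379, and both moved the median of all genes by under 0.1. Of the shares of list members above 0, that of maternal genes moved from 29.6% to 43.9% with median-ratio scaling and 39.8% with quantile normalization. The class of stored transcripts 2-fold higher by the early 2-cell stage turned from 42.8% to 51.9% above 0 under median-ratio scaling. The class under 0.1 FPKM at both earlier stages turned from 54.8% to 47.4% with no filter, which admits 4044 genes of it, most of them near 0. The medians of replication-dependent histone genes (-1.16 to -0.38), the 7 lists of 2-cell genes (0.32 to 0.56), nucleolar genes (0.28 to 0.42) and oxidative phosphorylation genes (-0.35 to -0.25) kept their sign under all 7 alternatives. Of 160 differences recomputed for the 40 named genes under 4 alternatives, 158 stayed beyond 2-fold and none reversed. These genes were picked for their differences, which were 2.13 or more or -1.88 or less. A change of pseudocount cannot turn a sign, and the 2 scalings moved the median by under 0.1. That none reversed was therefore fixed in advance and does not bear on whether the differences would recur. No paired analysis was possible because the columns carry no replicate numbers and hold 1 value per group. For the same reason no sample could be left out, and how far any difference exceeds the variation between embryos is unknown.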

Other observations

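Differences were spread over all chromosomes. Chromosome X had a median of -0.21 over 451 genes, with 14 higher and 27 lower, against -0.08 over all genes. Chromosome 13 had 38 lower (7.76%) and 7 higher of 490, against 4.08% and 2.51% over all genes, and 26 lower of 460 (5.65%) without the replication-dependent histone genes, while 5.99% of the genes on chromosome X and 4.84% on chromosome 10 were lower. Xist, the RNA that silences an X chromosome, was at 10.2 FPKM with TSA and 10.8 untreated. Its antisense partner Tsix was at 8.11 and 23.1, and reads of the 2 cannot be told apart where strand was not kept.

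Runs of at least 3 genes called the same way occurred in 3 places. Neighbours were judged among the genes kept, so genes under the limit of 1 FPKM between them were passed over. On chromosome X, 5 genes between 134944526 and 135504755 (GRCm38.p6) were higher: Nxf2, a testis-enriched mRNA export factor (10.7 and 4.39 FPKM), Gm15023 (2.26 and 0), Pramel3 (2.27 and 0.379), Gm5128 (2.33 and 0.388) and AV320801 (3.69 and 0.102). All 5 were at or under 0.339 FPKM at the early 2-cell stage. Apart from Nxf2, they were under 1 FPKM untreated and were kept through the TSA column alone. The other 2 runs were the miR-17-92 cluster on chromosome 14 and Hist1h1a, Hist1h2ba and Hist1h2aa on chromosome 13, both lower. The genes of the miR-17-92 run were listed at 0 with TSA and were kept through the untreated column alone. The filter thus had a part in which runs could appear.

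Long noncoding RNAs had 44 lower (8.40%) and 14 higher (2.67%) of 524, and protein-coding genes 441 (3.70%) and 281 (2.36%) of 11930. By genomic span, the fifth of genes with the longest spans, 67044 bases and more, had a median of -0.17, against -0.05 for the fifth with the shortest. Among imprinted genes, 5 of 44 were higher (11.4%, against 2.51% over all genes) and 2 were lower (4.55%, against 4.08%). Ascl2, a maternally expressed factor of the trophoblast, was at 18.5 and 3.83 FPKM, and Mirg, of the Dlk1 to Dio3 region, at 4.22 and 0.211, while Rian of the same region was at 0.973 and 2.06. Peg13 was at 4.82 and 14.0.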
